A study of Drosophila melanogaster with 15 samples.

Results

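The RNAs described here are the 59 best expressed genes carrying a noncoding name in whole adult females of *Drosophila melanogaster*. They were chosen by their name, which in the abundance table is always a CR number, and by a mean of at least 5 TPM over all 15 libraries. TPM is a transcript abundance divided by length and scaled to the same total in every library. The table holds 17030 genes, of which 2357 have such a name. Genes under another kind of name were left out, whether or not their RNA is noncoding. The level was thus used to choose the members and is given as a description. CR42254 (5.22 TPM), CR43460 (5.21 TPM) and CR46137 (5.02 TPM) lay just inside the limit, and CR43463 (4.83 TPM), CR45251 (4.75 TPM) and CR44382 (4.75 TPM) just outside it.

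The libraries came from 4 groups of mated females aged about 7 days, with 5 whole flies in each library. They were *foxo* mutants after 16 h at 1% oxygen (hypoxia, 4 libraries), *foxo* mutants in ambient air (normoxia, 4 libraries), w1118 control females after the same hypoxia (4 libraries) and w1118 females in normoxia (3 libraries, numbered 2 to 4). The mutation is a null allele of *foxo*, the gene of the single forkhead box O transcription factor of flies, and its stock is kept over a balancer chromosome. Whether the mutant and w1118 lines share the rest of their genome is not given in the sources used here, so the allele and other differences between the lines cannot be told apart.

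Long noncoding RNAs are transcripts that are, as a rule, made and often spliced like mRNAs but carry no long open reading frame. Some act on the chromatin or transcription of neighbouring genes, some serve as scaffolds for proteins, and some are hosts from whose introns small nucleolar RNAs (snoRNAs), guides for the modification of ribosomal RNA, are cut. Many in flies have no known function. In flies the heat shock RNA that builds omega speckles and the roX RNAs of dosage compensation are classic cases in which a noncoding RNA answers stress or marks a chromosome.

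The 59 members spanned a wide range of levels. A single RNA, CR40469, averaged over 1000 TPM, 18 lay between 20 and 1000 TPM, and 27 lay below 10 TPM, with a median of 12.1 TPM. By current RefSeq annotation, 47 are long noncoding RNAs, 8 are antisense RNAs and 1 (CR43701, of 93 bases) is a small noncoding RNA. The other 3 have since been reannotated as protein coding. These are CR44404, now IBIN, CR45045, now CG45045, and CR43051, now CG43051. Transcripts were short, with a median of 580 bases for the longest form of each member and a range of 93 to 6518 bases. A single exon was annotated for 27 members and a single transcript for 38.

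By the Ensembl annotation of the dm6 assembly, 20 members are on chromosome X, 14 on 3R, 9 on 3L, 8 on 2L and 8 on 2R. Most overlap a protein-coding gene. Of the members, 17 lie within an intron of a gene on the opposite strand, 1 does so in part, 12 overlap an exon on the opposite strand, 11 overlap an exon on the same strand and 2 lie in an intron on the same strand. The other 16 lie between coding genes. Reads of overlapping genes may not be told apart, since the strand setting of the quantification is not stated. The libraries were poly-A selected, so RNAs without a poly-A tail are undermeasured, and the TPM of very short transcripts is uncertain.

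The summed level of the members was 3945 to 9005 TPM in hypoxic *foxo* mutants, 3343 to 5007 TPM in normoxic *foxo* mutants, 1007 to 1570 TPM in hypoxic w1118 and 1042 to 1095 TPM in normoxic w1118. Without CR40469 the means were 1269, 1125, 1261 and 1056 TPM in the same order. The *foxo* gene itself was at 0.088 TPM or less in hypoxic and 0.257 TPM or less in normoxic mutants, against 18.3 to 39.9 TPM in hypoxic and 20.05 to 21.2 TPM in normoxic w1118, as the labels say. Within hypoxic w1118, libraries 2 and 4 were the highest pair for 23 of the 59 members. Over the members, deviations from the group mean correlated at 0.09 for libraries 1 and 3 and at 0.08 for libraries 2 and 4. The other pairs of libraries correlated at -0.64 to -0.45, and deviations from a shared mean correlate negatively by construction. This difference between libraries of 1 group is part of the spread in every test below that uses them.

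**Figure D1:**
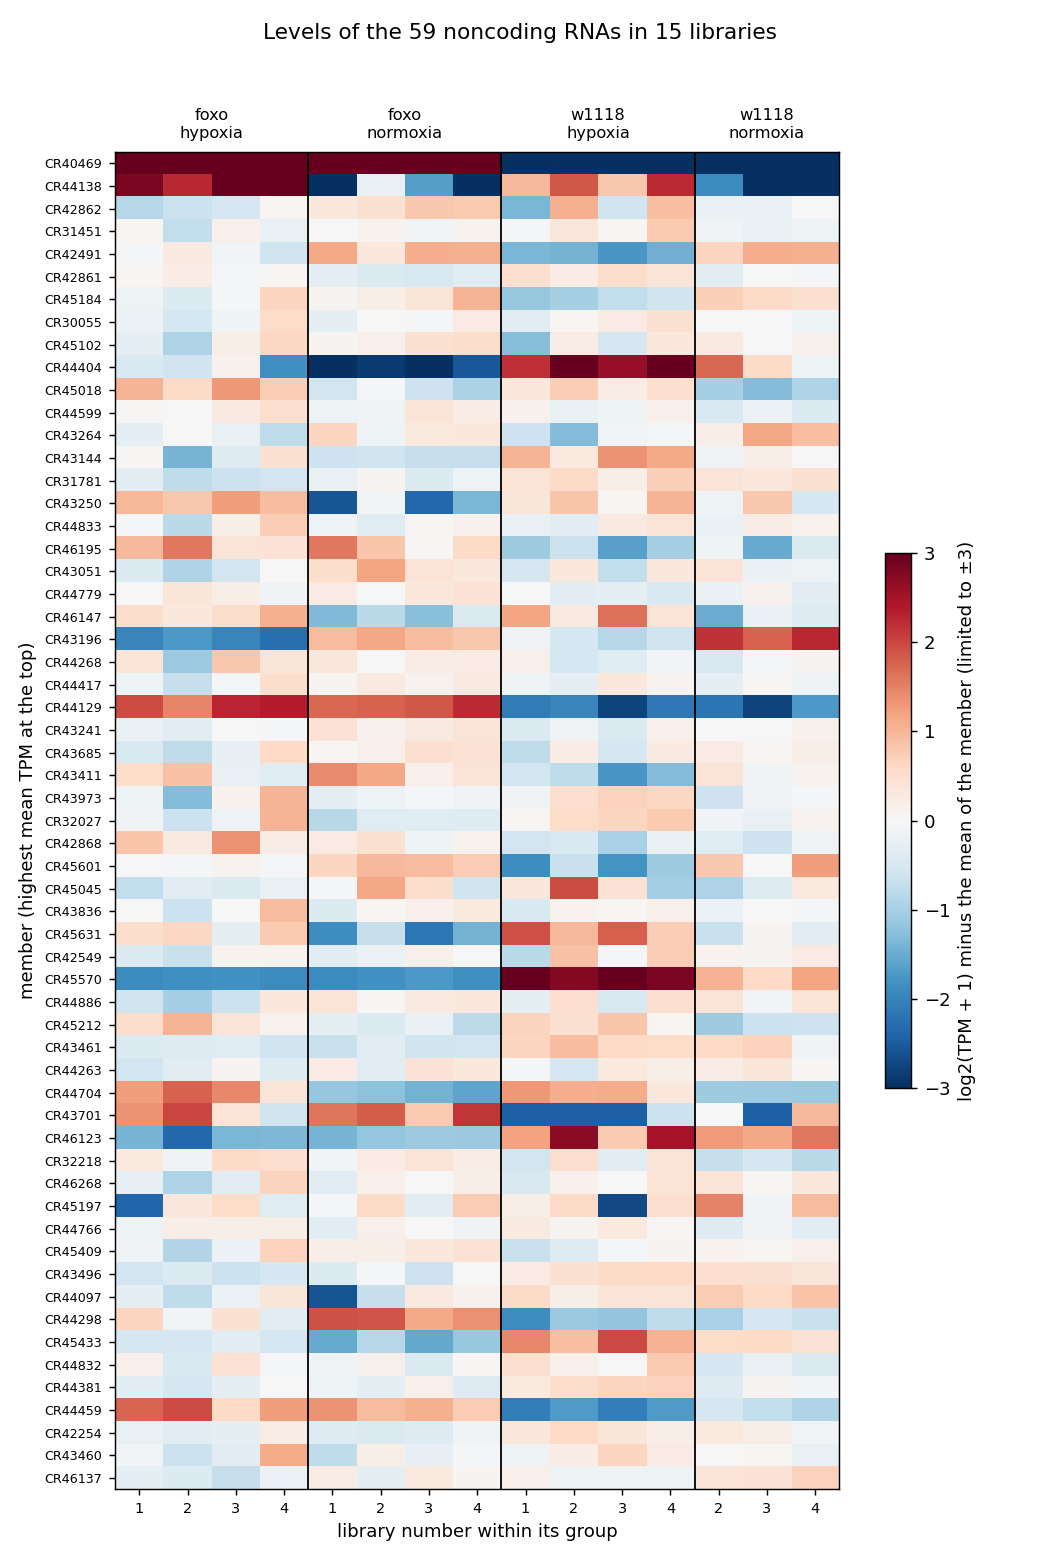
Level of each member (rows, highest mean TPM at the top) in each of the 15 libraries (columns, numbered within their group), as log2(TPM + 1) minus the mean of that member, limited to 3 either way. CR40469 and CR44129 were high in all 8 libraries of the *foxo* mutants and low in all 7 of w1118, and CR44138 was high in all 8 hypoxic libraries.

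Hypoxia was first compared with normoxia within each line, to ask which of these RNAs respond to low oxygen. Levels were compared on the log2(TPM + 1) scale, and a change was called where the limma adjusted p, over all 10288 genes tested, was under 0.05 and the fold over 1.5. In *foxo* mutants 9 members rose and 5 fell in hypoxia, where 7.06% of all genes rose and 11.8% fell. In w1118, 11 members rose and 7 fell, where 12.9% of all genes rose and 8.74% fell. Called in either direction were 23.7% of members in the mutants and 30.5% in w1118, beside 18.9% and 21.6% of all genes. With the replicate number as a block, 32.2% of members and 28.2% of all genes were called in w1118. The hypoxic and normoxic libraries did not overlap for 17 members in the mutants and 24 in w1118, beside 26.4% and 37.7% of all genes. Of the 37 members whose mean reached 5 TPM in each of the 4 groups, 4 rose and 2 fell in *foxo* mutants, and 3 rose and 3 fell in w1118. These 37 members were thus called less often than all genes in either line. Much of the response was in members that reached 5 TPM in some groups only, which can enter the list through a group where they are high. The median member changed by -0.06 in *foxo* mutants, against -0.04 over all genes, and by 0.09 in w1118, against 0.22 over all genes. With size factors from median ratios in place of TPM as deposited, the median change of all genes in w1118 was 0.002, 734 genes rose and 1269 fell in place of 1324 and 899, and 8 members rose and 9 fell.

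Both lines shared most of the larger responses. Of the members, 8 rose in both lines, 3 fell in both, 1 rose and 2 fell in the mutants without a call in w1118, 3 rose and 4 fell in w1118 without a call in the mutants, and none was called in opposite directions. The share of all genes called in both lines is not given here, so these counts may not be particular to the members. The change had the same sign in 42 of 59 members, with a correlation across members of 0.80, as it was across all genes (0.80). Genes are not independent replicates, so these are descriptions.

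**Figure D2:**
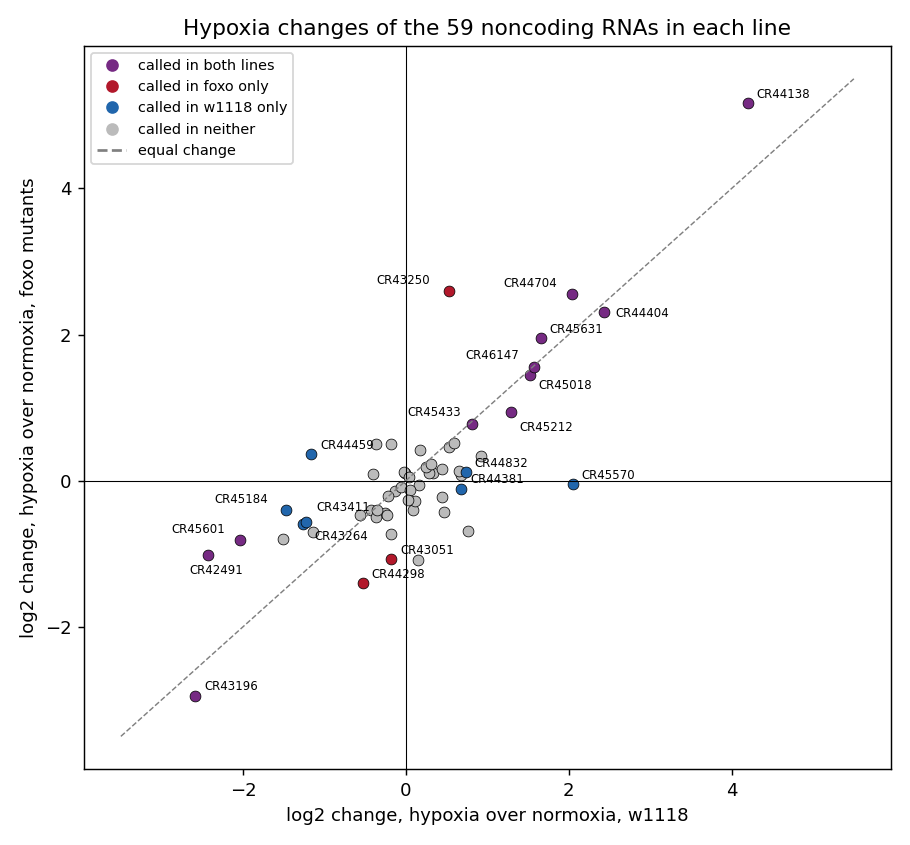
Change of each of the 59 members in hypoxia over normoxia, in log2(TPM + 1), in *foxo* mutants (vertical) and in w1118 (horizontal), coloured by where it was called; the dashed line marks equal change. CR44138 lies far above all others in both lines, CR43196 lowest in both, and CR45570 rose in w1118 with no change called in the mutants.

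CR44138 had the strongest rise. It is a single-exon RNA of 493 bases on 3R (13376903 to 13377395, plus strand), within an intron of CG9813 on the opposite strand. Its level was 265, 179, 338 and 353 TPM in hypoxic and 1.72, 31.2, 10.9 and 2.31 TPM in normoxic *foxo* mutants. In w1118 it was 72.2, 135, 64.3 and 176 TPM in hypoxia and 9.07, 3.77 and 2.76 TPM in normoxia. The hypoxic and normoxic libraries did not overlap in either line, and in the hypoxic mutants only CR40469 had a higher mean. The log2 change was 5.16 in *foxo* mutants (SE 0.624, limma adjusted p = 1.71e-05) and 4.20 in w1118 (SE 0.674, limma adjusted p = 2.96e-04). The changes of CG9813, -0.45 and 0.22, were not called.

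CR44704, CR45018, CR45212, CR45631 and CR46147 rose together in both lines (CR45018 and CR45212 are named after their values were seen, to complete the count). CR44704 is an antisense RNA of 1147 bases across exons of CG10527 on 2R. It was at 15.7, 23.1, 18.2 and 8.21 TPM in hypoxic and 2.17, 2.03, 1.66 and 1.38 TPM in normoxic *foxo* mutants, and at 16.3, 14.0, 14.3 and 7.76 TPM in hypoxic and 2.38, 2.35 and 2.26 TPM in normoxic w1118. Library 4 was the lowest hypoxic library in both lines, and still lay well above every normoxic one. The log2 change was 2.55 in the mutants (SE 0.267, limma adjusted p = 5.27e-06) and 2.04 in w1118 (SE 0.289, limma adjusted p = 9.41e-05).

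CR45018 is a 3637-base RNA on X that shares exon sequence with IP3K2, which encodes an inositol trisphosphate kinase. It was at 47.1, 34.7, 57.7 and 38.6 TPM in hypoxic and 15.3, 21.8, 14.5 and 11.4 TPM in normoxic *foxo* mutants. Its w1118 levels were 28.6, 39.0, 27.0 and 32.5 TPM in hypoxia and 10.96, 8.70 and 11.5 TPM in normoxia. The hypoxic and normoxic groups of each line were apart, with log2 changes of 1.45 in the mutants (SE 0.205, limma adjusted p = 7.89e-05) and 1.52 in w1118 (SE 0.221, limma adjusted p = 1.19e-04). IP3K2 rose too, by 1.31 in the mutants (SE 0.284, limma adjusted p = 3.28e-03) and 0.91 in w1118 (SE 0.307, limma adjusted p = 0.0398), and reads of shared exons may not be told apart. The most abundant transcript of CR45018 carried the rise, with log2 changes of 1.53 in each line.

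CR45631, of 750 bases on 3R, was at 10.2, 10.9, 5.32 and 12.5 TPM in hypoxic and 1.14, 3.81, 0.715 and 1.90 TPM in normoxic *foxo* mutants, and at 28.5, 14.3, 25.7 and 11.9 TPM in hypoxic and 3.89, 7.20 and 5.21 TPM in normoxic w1118. CR46147, a 301-base RNA within an intron of mthl1 on the opposite strand, was at 22.4, 19.0, 22.2 and 32.7 TPM in hypoxic and 5.47, 8.20, 5.74 and 11.03 TPM in normoxic mutants. In w1118 it was at 35.6, 18.5, 49.7 and 20.6 TPM in hypoxia and 4.74, 13.1 and 11.4 TPM in normoxia. Neither RNA had overlapping groups in either line, but both were higher in libraries 1 and 3 of hypoxic w1118 than in libraries 2 and 4. The log2 changes of CR45631 were 1.95 and 1.66 in mutants and w1118, and those of CR46147 were 1.56 and 1.57. CR45212, which shares exon sequence with IKKbeta, a kinase of the immune deficiency pathway, changed by 0.93 in the mutants and 1.29 in w1118.

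CR43196 fell furthest. It is a 543-base RNA on 3R (17382129 to 17382767, minus strand) inside introns of lute, on the opposite strand, and of Brf, on its own strand. It was at 1.87, 2.44, 1.88 and 1.34 TPM in hypoxic and 20.7, 24.3, 20.5 and 18.7 TPM in normoxic *foxo* mutants. The w1118 libraries had 9.56, 6.89, 5.25 and 6.504 TPM in hypoxia and 49.5, 37.9 and 53.4 TPM in normoxia. All 4 groups were separate from each other, in the order of normoxic w1118, normoxic mutants, hypoxic w1118 and hypoxic mutants. The log2 change in hypoxia was -2.94 in *foxo* mutants (SE 0.189, limma adjusted p = 4.52e-08) and -2.59 in w1118 (SE 0.204, limma adjusted p = 3.27e-07). No change of lute or Brf was called.

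**Figure D3:**
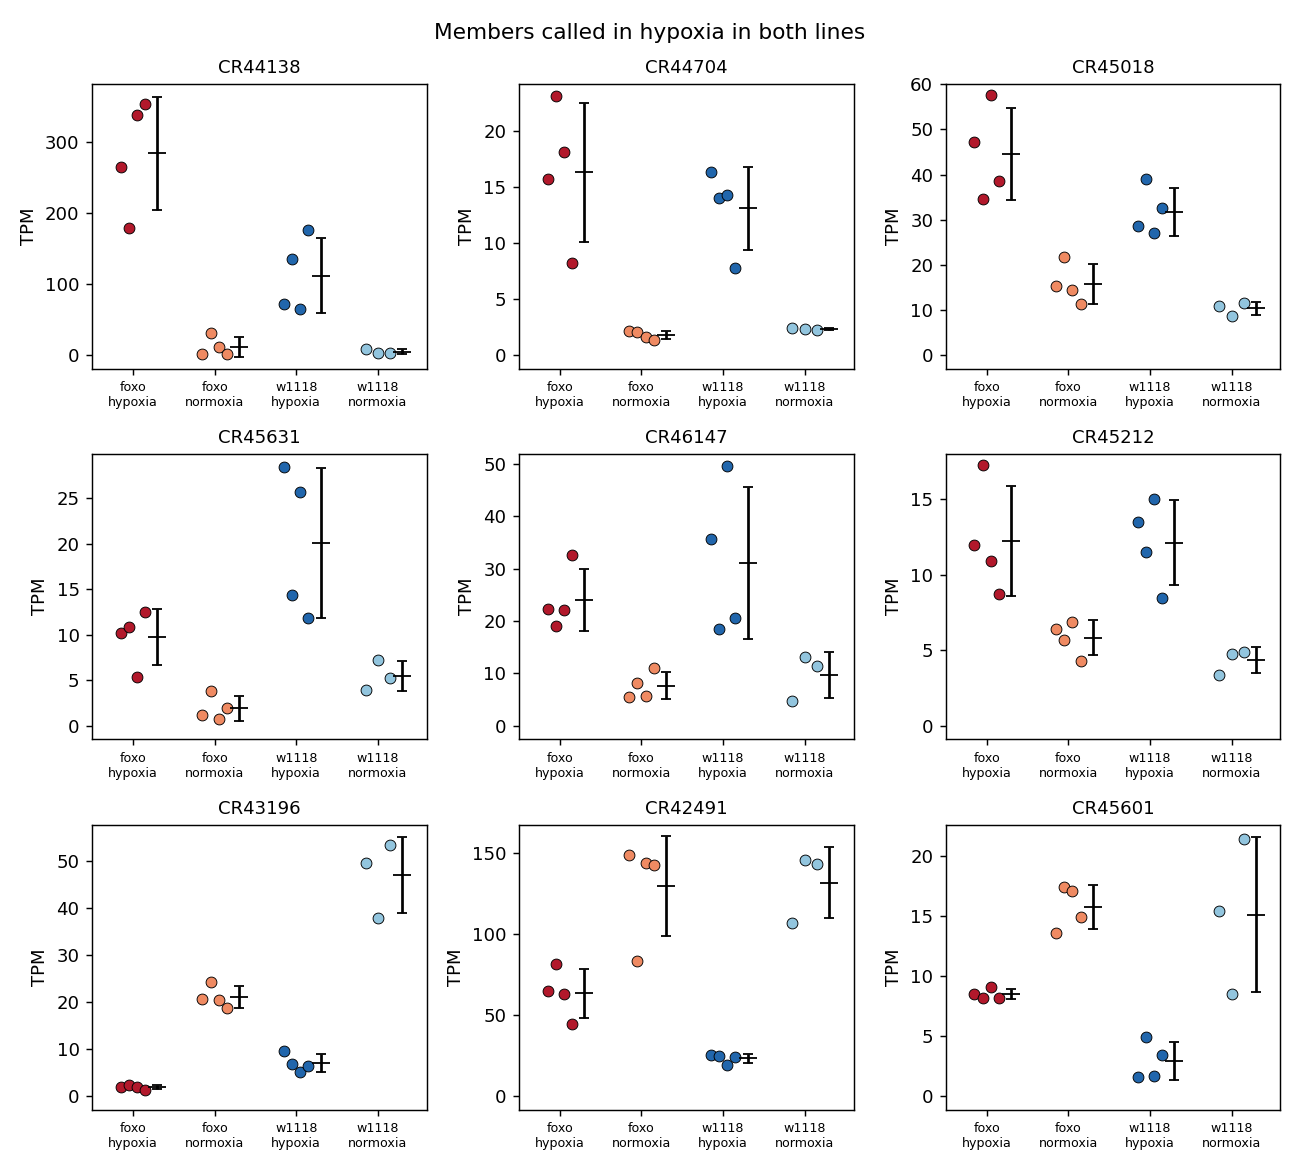
Levels in TPM of 9 of the 11 members called in hypoxia in both lines, one panel for each, with a point for each library and the mean and SD beside each group. In all 9 panels the hypoxic and normoxic libraries of a line do not overlap; CR42491 fell further in w1118 than in *foxo* mutants.

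CR42491, CR45184 and CR43051 are the only 3 members with an annotated snoRNA or small nuclear RNA gene inside them (1, 5 and 1). CR43051 is annotated with a single exon and so has no intron. CR42491 fell in both lines, CR45184 in w1118 and CR43051 in the mutants, so 2 of 3 fell in each line, where 11.8% of all genes fell in the mutants and 8.74% in w1118. CR42491, on X within RpL22, which encodes a protein of the large ribosomal subunit, was at 65.05, 81.3, 63.2 and 44.4 TPM in hypoxic and 149, 83.4, 143 and 142 TPM in normoxic *foxo* mutants. In w1118 the levels were 25.5, 24.6, 19.5 and 24.0 TPM in hypoxia and 106, 145 and 143 TPM in normoxia. The fall was deep and tight in w1118 and shallower in the mutants, whose normoxic library 2 lay near the hypoxic ones. The log2 change was -1.01 in the mutants (SE 0.206, limma adjusted p = 2.03e-03) and -2.44 in w1118 (SE 0.223, limma adjusted p = 1.33e-06). RpL22 itself fell by 0.70 in w1118, and was not called in the mutants (-0.50, limma adjusted p = 0.136). CR42491 stood at 3.68% to 11.04% of the RpL22 level in hypoxic and 6.83% to 13.7% in normoxic mutants, which overlap, and at 2.05% to 4.73% in hypoxic and 6.65% to 13.1% in normoxic w1118, which do not.

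CR45184, which overlaps exons of Sf3b3, a splicing factor gene, was at 30.1, 25.1, 32.9 and 52.8 TPM in hypoxic and 35.8, 38.2, 43.5 and 69.6 TPM in normoxic *foxo* mutants, where the groups overlapped. The w1118 levels were 14.8, 16.4, 19.6 and 21.8 TPM in hypoxia and 56.3, 50.7 and 47.7 TPM in normoxia, with no overlap. The log2 change was -1.47 in w1118 (SE 0.250, limma adjusted p = 5.03e-04) and -0.40 in the mutants (limma adjusted p = 0.243). The difference between these was not called (1.06, limma adjusted p = 0.147). CR43051, within bun on the opposite strand, fell by 1.07 in the mutants (SE 0.280, limma adjusted p = 0.0110), with means of 14.6 ± 4.06 TPM in hypoxia and 32.0 ± 9.94 TPM in normoxia (SD, n = 4 each). Its change in w1118 was -0.18 (limma adjusted p = 0.676), and the difference between the lines was not called (-0.89, limma adjusted p = 0.380). Among 6 tested genes of a list of snoRNA hosts, 0 were called by limma in hypoxic mutants (2 at an unadjusted p under 0.05) and 1 fell in w1118 (Uhg1, by 0.91).

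CR44404, or IBIN, is known as a short transcript induced by infection in flies. It was at 6.24, 5.51, 9.74 and 1.75 TPM in hypoxic *foxo* mutants and at 0, 0.346, 0 and 0.709 TPM in normoxic ones. The w1118 females had 44.3, 139, 59.5 and 158 TPM in hypoxia and 31.9, 13.7 and 8.05 TPM in normoxia. Every hypoxic library was above every normoxic one of its line, and every mutant library was below every w1118 library in the same air. The log2 change in hypoxia was 2.31 in mutants (SE 0.482, limma adjusted p = 2.42e-03) and 2.43 in w1118 (SE 0.521, limma adjusted p = 3.00e-03), and the mutants were lower by 3.73 in normoxia and by 3.85 in hypoxia. Of 14 antimicrobial peptide genes, which infection also induces, 12 rose in hypoxic mutants and 10 in hypoxic w1118. Of the same genes, 6 were lower in the mutants than in w1118 in hypoxia, for example CecA1 by 1.79 and Dro by 1.38 on the log2 scale, and 6 in normoxia.

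CR43250 is a 341-base RNA on 3L, 1039 bases from Ilp8, which encodes a relaxin-like hormone. It was at 35.3, 30.7, 42.1 and 33.3 TPM in hypoxic and 2.04, 16.0, 2.52 and 6.03 TPM in normoxic *foxo* mutants, and at 22.2, 31.0, 17.7 and 35.8 TPM in hypoxic and 15.3, 30.5 and 11.5 TPM in normoxic w1118. The mutant groups were apart and the w1118 groups overlapped. The log2 change was 2.60 in the mutants (SE 0.439, limma adjusted p = 4.22e-04) and 0.52 in w1118 (limma adjusted p = 0.430), and the difference between these was not called (2.07, limma adjusted p = 0.131). Ilp8 rose by 1.84 in the hypoxic mutants (SE 0.447, limma adjusted p = 6.85e-03). In the libraries of *foxo* mutants it was at 36.7 to 62.5 TPM in hypoxia and 4.08 to 37.1 TPM in normoxia.

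Several other responses to hypoxia were called, some of them less stable. CR44832 and CR44381 rose in w1118 by 0.73 and 0.68 (named after their values were seen), and CR45433 rose by 0.78 in mutants and 0.82 in w1118. CR43264, CR43411 and CR44459 fell in w1118 by 1.26, 1.23 and 1.17, and CR44298 fell in the mutants by 1.40. The call of CR43411 in w1118 was lost without 1 of normoxic libraries 2 and 4 or hypoxic libraries 3 and 4 (log2 changes -1.10, -1.24, -1.01 and -1.16). That of CR45433 was lost without normoxic w1118 library 2 or 4, without hypoxic w1118 library 3, and, in the mutants, without normoxic library 1 or 3 (0.82, 0.77, 0.60, 0.70 and 0.69). It was also lost in the mutants with a pseudocount of 5 (0.32, limma adjusted p = 0.120), and in w1118 with size factors from median ratios (0.60, limma adjusted p = 0.112) or when only the w1118 libraries were fitted (0.82, limma adjusted p = 0.0572). The call of CR44459 in w1118 was lost with a pseudocount of 5 (-0.35, limma adjusted p = 0.143), its hypoxic libraries being near 0.

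In whole flies, fewer cells of a type and less RNA per cell cannot be told apart. Among marker lists, 4 of 5 tested fat body genes and 5 of 8 eggshell genes fell in hypoxic w1118, and 4 of 5 and 4 of 8 in hypoxic mutants. The summed level of the fat body list was 8490 to 11856 TPM in hypoxic and 18582 to 22586 TPM in normoxic mutants, against 2286 to 4846 TPM in hypoxic and 14805 to 27414 TPM in normoxic w1118. Of 4 gut markers, 3 fell and 0 rose in the mutants, and 3 fell and 1 rose in w1118. The part of these shifts in the changes of the members was not tested. Of 5 neuron markers 0 were called by limma in either line (2 in mutants and 0 in w1118 at an unadjusted p under 0.05). Of 4 muscle markers 1 fell in each line, of 5 tested female germline genes 1 rose and 1 fell in mutants and 1 rose in w1118, and accessory gland markers summed to 0.687 TPM or less in every library. The 9 testis and sperm markers summed to 17.0 to 70.3 TPM, and the 1 of them that was tested was not called in hypoxia in either line. Of 16 heat shock chaperone genes, 13 rose in each line. Of 7 tested dosage compensation genes, 1 rose and 1 fell in the mutants and 2 rose in w1118, and 0 of 9 omega speckle protein genes were called by limma in either line (2 in mutants and 0 in w1118 at an unadjusted p under 0.05).

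The difference between the lines in their response (mutant change minus w1118 change) was called for 3 members. It was positive for 2 and negative for 1, where 1.07% and 1.55% of all genes were called, and 2.61% in either direction. With size factors from median ratios, 156 genes had a positive and 107 a negative difference in place of 110 and 159. The negative one was CR45570, a 561-base RNA on 3R (30404429 to 30404989, plus strand), 13778 bases from the nearest coding gene, CG2217. In *foxo* mutants it was at 0, 0.052, 0.067 and 0 TPM in hypoxia and 0, 0.078, 0.138 and 0.054 TPM in normoxia. Levels in w1118 were 35.04, 24.3, 32.9 and 25.6 TPM in hypoxia and 6.77, 4.74 and 7.65 TPM in normoxia. It was thus near 0 in all 8 mutant libraries, and in w1118 the hypoxic and normoxic libraries were far apart. The log2 change was -0.05 in mutants and 2.05 in w1118, with a difference of -2.10 (SE 0.237, limma adjusted p = 2.06e-04). In the mutants CR45570 stayed near 0 in both airs, so the difference is close in size to the change in w1118. Why it did not rise in the mutants was not tested. CG2217 rose in both lines, by 2.23 in mutants and 2.07 in w1118.

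The other pair was less stable. CR42491, described above, had a difference of 1.42 (SE 0.304, limma adjusted p = 0.0185), and CR44459, a 246-base RNA on 2R, one of 1.53 (SE 0.366, limma adjusted p = 0.0374). CR44459 was at 13.2, 15.3, 5.37 and 9.04 TPM in hypoxic and 9.63, 7.13, 7.82 and 6.14 TPM in normoxic mutants, and at 0, 0.296, 0 and 0.296 TPM in hypoxic and 1.96, 1.51 and 1.24 TPM in normoxic w1118. The w1118 levels of CR44459 lay near the floor of the scale, which bears on its difference. With the replicate number as a block the adjusted p of limma was 0.0635 for CR42491, 0.0596 for CR44459 and 6.11e-03 for CR45570. The block called 1 positive difference, that of another member, and 2 negative ones. With size factors from median ratios neither CR42491 nor CR44459 was called (limma adjusted p = 0.0560 and 0.0655). Without normoxic w1118 library 3 or 4 no positive difference was called for a member (CR42491 at 1.35 and 1.36, CR44459 at 1.54 and 1.62), and that of CR44459 was also lost without normoxic w1118 library 2, hypoxic w1118 library 1, 3 or 4, normoxic mutant library 2, 3 or 4 or hypoxic mutant library 1 or 2, at 1.34 to 1.59.

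The lines were then compared in the same air. In normoxia 5 members were higher and 8 lower in *foxo* mutants than in w1118, where 5.14% of all genes were higher and 2.84% lower. In hypoxia 11 were higher and 10 lower, where 6.91% of all genes were higher and 7.34% lower. Together these are 22.0% and 35.6% of the members, beside 7.98% and 14.2% of all genes and 19.2% and 27.8% of the 245 other noncoding genes tested. The lines did not overlap for 26 members in normoxia and 22 in hypoxia, beside 35.9% and 16.2% of all genes. Members differing this much between lines can enter the list through 1 line alone. Of the 37 members that reached 5 TPM in every group, 2 were higher and 2 lower in normoxia, and 5 were higher and 3 lower in hypoxia. The median member differed by 0.04 in normoxia and by -0.10 in hypoxia, against 0.04 and -0.22 over all genes. With size factors from median ratios, 992 genes were higher and 448 lower in hypoxia in place of 711 and 755, and 12 members were higher and 10 lower. Of the members, 5 were higher and 7 lower in both airs, and none switched direction. The share of all genes called in both airs is not given here, so this may not be particular to the members.

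CR40469 differed most. It is a single-exon RNA of 214 bases on X (122493 to 122706, plus strand). Its level was 4032, 7963, 2589 and 2898 TPM in hypoxic and 2261, 3897, 2357 and 3605 TPM in normoxic *foxo* mutants, against 17.0, 7.96, 12.02 and 16.5 TPM in hypoxic and 11.6, 11.5 and 10.7 TPM in normoxic w1118. The lowest mutant library was 133 times the highest w1118 library. The log2 difference was 8.15 in hypoxia (SE 0.311, limma adjusted p = 6.57e-11) and 7.91 in normoxia (SE 0.336, limma adjusted p = 7.21e-10), with no change called in hypoxia in either line. CG17636, its nearest coding gene at 1664 bases, was also higher in the mutants, by 0.94 in hypoxia and 1.22 in normoxia. CG17636 was at 3.32 to 5.03 TPM in hypoxic and 4.36 to 7.07 TPM in normoxic mutants, against 1.35 to 1.99 TPM in hypoxic and 1.36 to 1.74 TPM in normoxic w1118.

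CR44129, a 321-base RNA on X within an intron of CG4829 on the opposite strand, was at 25.4, 17.8, 32.4 and 34.1 TPM in hypoxic and 21.4, 22.3, 23.7 and 31.4 TPM in normoxic *foxo* mutants. It was at 0.598, 0.735, 0 and 0.547 TPM in hypoxic and 0.484, 0 and 1.08 TPM in normoxic w1118. The lines were far apart in both airs, and no change in hypoxia was called in either. The log2 difference was 4.26 in hypoxia (SE 0.260, limma adjusted p = 1.79e-08) and 4.13 in normoxia (SE 0.281, limma adjusted p = 1.49e-07). Since w1118 is near 0, the size of this difference depends on the pseudocount, as it does for CR45570, where the mutants were lower by 4.87 in hypoxia (SE 0.161, limma adjusted p = 2.64e-11) and by 2.77 in normoxia (SE 0.174, limma adjusted p = 6.12e-08).

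**Figure D4:**
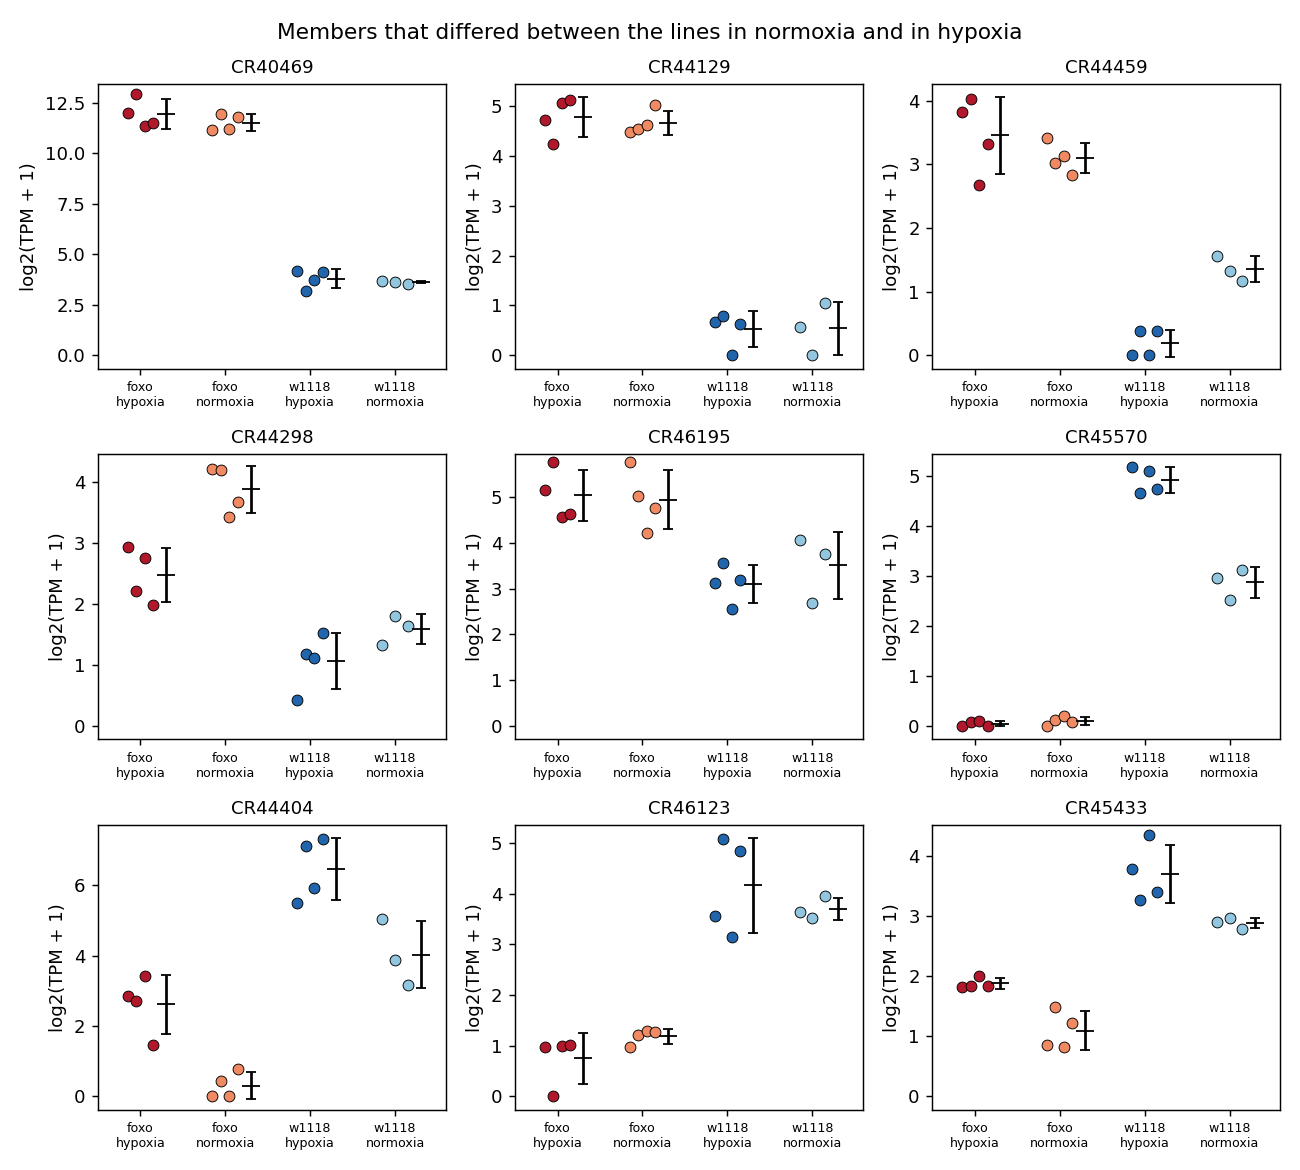
Levels, as log2(TPM + 1), of 9 members that differed between the lines in both airs, with a point for each library and the mean and SD beside each group. CR40469, CR44129, CR44459, CR44298 and CR46195 were higher in *foxo* mutants, and CR45570, CR44404, CR46123 and CR45433 lower, with no overlap between the lines in the same air.

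CR46123, a 368-base RNA on 3R within an intron of Myo81F on the opposite strand, was at 0.974, 0, 1.00 and 1.03 TPM in hypoxic and 0.966, 1.30, 1.43 and 1.40 TPM in normoxic *foxo* mutants. It was at 10.9, 32.9, 7.89 and 27.8 TPM in hypoxic and 11.4, 10.5 and 14.4 TPM in normoxic w1118. The mutants were lower by 3.41 in hypoxia (SE 0.363, limma adjusted p = 6.41e-06) and by 2.52 in normoxia (SE 0.392, limma adjusted p = 6.09e-04). CR45433 was likewise lower in the mutants in both airs, by 1.82 and 1.79, and CR43196 by 1.47 and 1.11.

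CR44298, a 299-base RNA on 2R opposite an intron of magu, was at 6.61, 3.64, 5.75 and 2.95 TPM in hypoxic and 17.4, 17.2, 9.74 and 11.7 TPM in normoxic *foxo* mutants, and at 0.338, 1.25, 1.16 and 1.86 TPM in hypoxic and 1.51, 2.47 and 2.10 TPM in normoxic w1118. It was higher in the mutants and highest in normoxia. Only its mean in normoxic mutants (14.0 TPM) reached 5 TPM, so CR44298 entered the list through the group where it is highest. The log2 difference was 1.42 in hypoxia (SE 0.269, limma adjusted p = 1.44e-03) and 2.29 in normoxia (SE 0.290, limma adjusted p = 9.59e-05). CR44459 was higher in the mutants by 3.28 in hypoxia and 1.75 in normoxia. CR46195, an antisense RNA over exons of Trf4-1, was higher by 1.93 in hypoxia and 1.44 in normoxia, and its normoxic call was lost without normoxic w1118 library 3 or 4 or without normoxic mutant library 1, 2 or 4, at 1.02 to 1.57. That call of CR46195 was also lost with no filter or with size factors from median ratios (limma adjusted p = 0.0608 and 0.0688). The lower level of CR43250 in normoxic mutants (-1.64, limma adjusted p = 0.0431, groups overlapping) was lost without normoxic w1118 library 2 or 3, hypoxic w1118 library 2, normoxic mutant library 1, 3 or 4 or hypoxic mutant library 1 or 3, at -1.73 to -1.26. It was also lost with a pseudocount of 5, no filter, the replicate block or only the libraries compared (limma adjusted p = 0.0540, 0.0741, 0.0773 and 0.0893). Leaving out normoxic w1118 library 3 left 5 members lower in normoxic mutants in place of 8.

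Some differences between the lines were called in hypoxia alone. Higher in the hypoxic mutants were CR43701 by 2.79, CR42491 by 1.38, CR45601 by 1.37, CR43411 by 1.30, CR42868 by 1.21 and CR45184 by 0.88. CR43144, CR31781 and CR44381 were lower, by 1.27, 1.05 and 0.82 (CR42868, CR31781 and CR44381 are named after their values were seen). CR42491, CR45601, CR43411 and CR45184 had fallen in hypoxic w1118. The call of CR43411 was lost without hypoxic w1118 library 3 or hypoxic mutant library 1 or 2, at 1.09, 1.20 and 1.08. CR43701, the 93-base RNA, was at 13.0, 20.9, 6.28 and 2.63 TPM in hypoxic mutants and at 0, 0, 0 and 2.53 TPM in hypoxic w1118. At such a length TPM is uncertain.

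The member nearest to the *foxo* gene, CR43460 at 82.3 kb on 3R, was not called between the lines. It was at 4.61, 2.78, 3.63 and 11.7 TPM in hypoxic and 2.50, 5.71, 3.95 and 4.79 TPM in normoxic mutants, against 4.29, 5.92, 8.27 and 5.97 TPM in hypoxic and 4.86, 5.11 and 4.04 TPM in normoxic w1118, with overlapping groups. Members that differed in normoxia were on X (3 higher and 2 lower of 20), 2R (2 and 1 of 8), 3R (0 and 3 of 14) and 3L (0 and 2 of 9), and 0 of 8 on 2L were called by limma (2 at an unadjusted p under 0.05).

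Coding genes that overlap or lie next to a member were compared in the same libraries. Of 7 antisense pairs whose RNA was called in hypoxic mutants, the coding gene was called in the same direction in 1, and of 7 in w1118 in 2. Of same-strand pairs these were 1 of 4 in mutants and 2 of 5 in w1118, and of neighbouring pairs 1 of 4 in mutants and 1 of 5 in w1118. Over all genes tested, 7.06% rose and 11.8% fell in hypoxic mutants, and 12.9% rose and 8.74% fell in hypoxic w1118. No coding gene was called the opposite way in hypoxia in either line. Across pairs the correlation of the changes in hypoxia was 0.12 to 0.39, over 13 to 30 pairs.

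**Figure D5:**
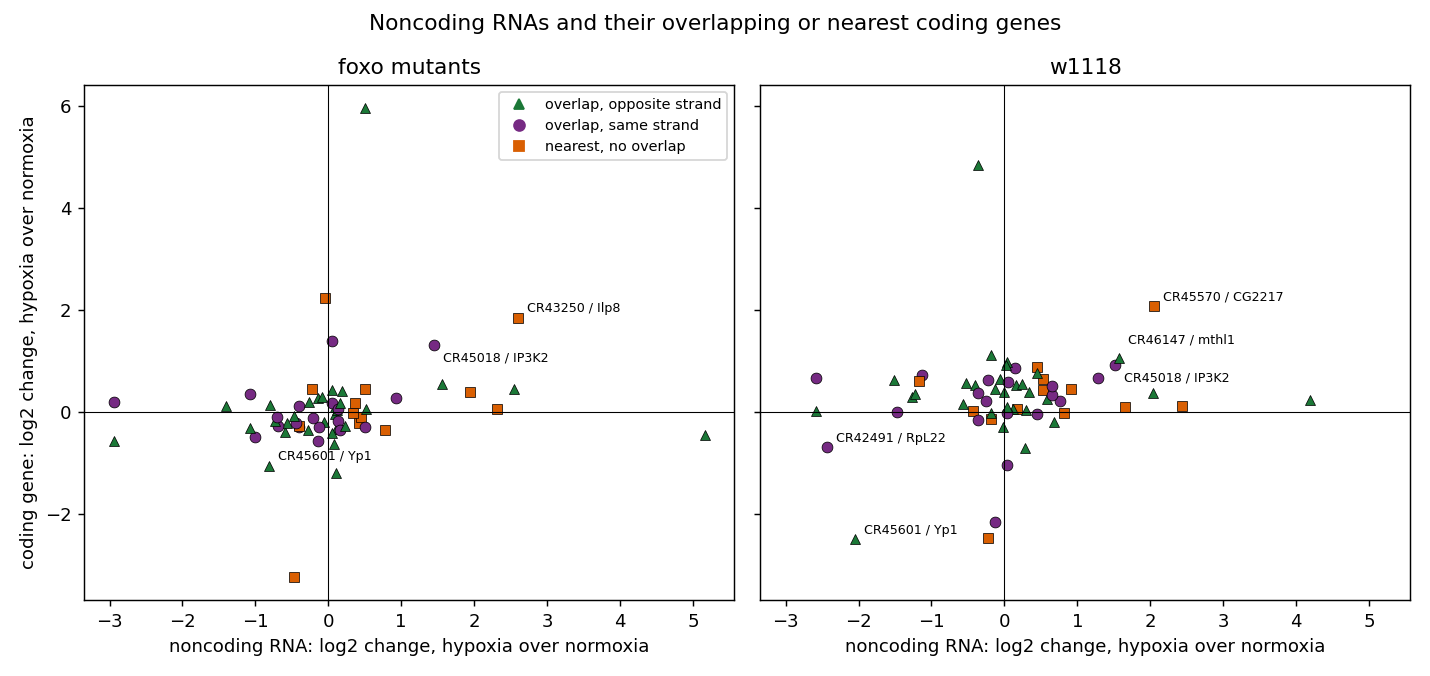
Change in hypoxia over normoxia, in log2(TPM + 1), of each member (horizontal) and of its overlapping or nearest coding gene (vertical), in *foxo* mutants (left) and w1118 (right), with marks for the kind of neighbour. Pairs in which both were called are named; the point at the top of each panel is CR44097 with Hsp68.

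CR45601 and CR44097, both antisense to a gene that changed in hypoxia, differed in whether they went with it. CR45601 lies on X (10054235 to 10055109, minus strand) across exons of Yp1, which encodes a yolk protein made by the fat body and the ovary. It was at 8.54, 8.21, 9.12 and 8.22 TPM in hypoxic and 13.6, 17.5, 17.1 and 14.9 TPM in normoxic *foxo* mutants, and at 1.59, 4.91, 1.70 and 3.48 TPM in hypoxic and 15.5, 8.50 and 21.5 TPM in normoxic w1118. It fell by 0.81 in the mutants (SE 0.277, limma adjusted p = 0.0456) and by 2.04 in w1118 (SE 0.299, limma adjusted p = 1.26e-04), and Yp1 fell by 1.06 and 2.50. The call in the mutants was lost without any one of their 8 libraries, normoxic w1118 library 2 or hypoxic w1118 library 4, at -0.88 to -0.76. It was also lost with a pseudocount of 0.1 or with no filter (limma adjusted p = 0.0709 and 0.0704). CR45601 kept a near fixed share of Yp1, with 0.219% to 0.257% in hypoxic and 0.191% to 0.222% in normoxic mutants and 0.188% to 0.244% in hypoxic and 0.168% to 0.226% in normoxic w1118. Whether its values are reads of Yp1 was not tested.

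CR44097 overlaps exons of Hsp68, a heat shock chaperone, on the opposite strand (it is named after its values were seen). Hsp68 averaged 196 ± 31.6 TPM in hypoxic and 2.18 ± 0.569 TPM in normoxic *foxo* mutants (SD, n = 4 each), and 115.1 ± 20.4 TPM in hypoxic and 3.06 ± 0.676 TPM in normoxic w1118 (SD, n = 4 and 3). CR44097 was at 3.99, 2.58, 4.33 and 6.77 TPM in hypoxic and 0, 2.76, 6.31 and 5.58 TPM in normoxic mutants, and at 8.05, 5.79, 6.98 and 6.95 TPM in hypoxic and 9.32, 8.25 and 10.05 TPM in normoxic w1118. No change in hypoxia was called for it in either line, while Hsp68 rose by 5.95 in mutants and 4.83 in w1118. CR44704 was at 3.32% to 7.79% of its overlapping gene CG10527 in hypoxic and 0.697% to 0.912% in normoxic mutants, and at 2.66% to 5.19% in hypoxic and 0.925% to 1.18% in normoxic w1118, so it rose well beyond that gene.

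For 28 of the 59 members no comparison was called by limma, and 13 of these had an unadjusted p under 0.05 in at least 1. Their means over all libraries lay between 5.02 and 108 TPM, and they include several of the most abundant members. CR42862 was at 52.5, 61.3, 67.1 and 100 TPM in hypoxic and 120, 133, 170 and 166 TPM in normoxic *foxo* mutants, where the groups did not overlap (log2 change -1.08, limma adjusted p = 0.0707). In hypoxic w1118 it was at 36.5, 203, 63.7 and 182 TPM, either side of the 82.4, 83.7 and 94.9 TPM in normoxia. CR31451, also called lncRNA:mimi, was at 59.5 to 111 TPM in hypoxic and 94.5 to 108 TPM in normoxic mutants, and at 97.9 to 172 TPM in hypoxic and 85.4 to 93.2 TPM in normoxic w1118. CR42861 rose slightly in both lines, by 0.45 in mutants and 0.53 in w1118 (limma adjusted p = 0.0133 and 7.92e-03), short of 1.5-fold. CR30055 and CR45102 averaged 36.1 and 33.3 TPM over all libraries.

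Single transcripts of some of these passed the test where the gene did not. Among 18362 transcripts tested, the most abundant one of CR42862 fell in hypoxic mutants by 1.38 (limma adjusted p = 0.0476), with means of 50.4 TPM in hypoxia and 132 TPM in normoxia, beside -1.08 for the gene CR42862 (limma adjusted p = 0.0707). The most abundant transcript of CR31451 was lower in mutants than in w1118 in hypoxia by 1.03 (limma adjusted p = 0.0210), with means of 43.2 TPM in mutants and 83.2 TPM in w1118, beside -0.47 for the gene CR31451 (limma adjusted p = 0.106). The first call was lost with a pseudocount of 0.1 (limma adjusted p = 0.0567) and the second with size factors from median ratios (limma adjusted p = 0.0760). How kallisto divides reads among overlapping transcripts bears on these values, and that part was not tested.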

How the data were processed

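RNA of 15 whole-female libraries was analysed. The replicates are described as independent. The authors made poly-A directional libraries, used kallisto against RefSeq mRNA models (dm6) and sleuth for testing, and deposited TPM per transcript for every library. Tool versions were not given in the sources used here. TPM keep no read number, so depth is unknown and precision is that between replicates. Tables of the authors' own comparisons (fold, p-value and q-value) were not used, and no sample column was left unmapped. TPM were summed per gene name, and the 10288 genes whose mean reached 1 TPM in any group were tested as log2(TPM + 1) in a single model of the 4 groups with a variance trend (R 4.3.3, limma 3.58.1), adjusted by Benjamini-Hochberg over all genes. The design foresaw this form for TPM. The script was tested on simulated data.

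The members, lists and comparisons were chosen with earlier results of these data known. Named members are the 10 with the highest mean, up to 6 called in each comparison and direction with the largest change, and those beside the limit of 5 TPM; others are marked. Positions and overlaps came from Ensembl release 115, current names from RefSeq, which matched 56 members by transcript and 3 by synonym. Other pseudocounts (0.1 and 5), filters, scaling, variance without trend, smaller models, a replicate block, leaving out each library and another limit for members were tried. Same-numbered w1118 libraries deviated together (correlations 0.14, 0.37 and 0.18) and were taken as pairs. For *foxo* mutants 3 of 4 numbers did so and 1 did not (0.20, -0.07, 0.14 and 0.33), so pairing is less clear for them. Hypoxic and normoxic libraries of unlike number correlated at -0.28 to 0.16 in w1118 and at -0.57 to 0.39 in the mutants. Some unlike numbers thus went together as closely as like ones, and a shared number may not mark a true pair. Pairing was used only in the block. For changes in hypoxia and their difference, the block took numbers as pairs within both lines, the mutants included. For comparisons between the lines it took numbers across the lines.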

Additional observations from a re-analysis of the deposited data

Results flagged for a closer look

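In 4 of 84 groups of 4 libraries of named members, 1 library stood far from the other 3; chance flags about 1 in 20 groups. These were CR42491 in normoxic *foxo* mutants (library 2 at 83.4 TPM), CR43701 in hypoxic w1118 (library 4 at 2.53 TPM, the others at 0), CR46123 in hypoxic *foxo* mutants (library 2 at 0 TPM) and CR45433 in hypoxic *foxo* mutants (library 3 at 3.00 TPM).

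For 3 members the difference between the changes in hypoxia in *foxo* mutants and w1118 passed the test of the difference itself. The mutant change minus the w1118 change was 1.42 for CR42491, -2.10 for CR45570 and 1.53 for CR44459 on the log2 scale. CR45570 lay near 0 in every mutant library and CR44459 near 0 in hypoxic w1118, so the size of these differences depends on the pseudocount. Over the alternatives tried it ran from -2.54 to -1.60 for CR45570 and from 0.62 to 3.44 for CR44459. What lies behind these differences was not tested.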

How the results depend on the processing

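Of 56 results for named members, 43 kept their direction and call under every alternative tried, 13 lost the call under at least 1, and none reversed. With members chosen by a mean of 5 TPM in at least 1 group (93 members), the counts were 14 that rose and 12 that fell in hypoxic mutants, 24 and 12 in hypoxic w1118, 13 higher and 14 lower in mutants than in w1118 in normoxia, 18 and 21 in hypoxia, and 4 negative differences of response. The shares of all genes were, in the same order, 7.06% and 11.8%, 12.9% and 8.74%, 5.14% and 2.84%, 6.91% and 7.34%, and 1.55%. Members of this wider list can enter it through a single group where they are high. One positive difference of response, in place of 2, was called with a pseudocount of 5, with no filter, with a filter of 5 TPM, with median-ratio scaling and with the replicate block, which called 2 negative ones. Under median-ratio scaling and under the block, this positive difference was that of another member, as the calls of CR42491 and CR44459 were both lost. Leaving out single libraries, 4 to 9 members fell in hypoxic mutants (9 without hypoxic mutant library 4), 5 to 10 were lower in normoxic mutants, and 0 to 2 positive differences were called. The block raised the count of all genes that rose in hypoxic w1118 to 2003. In hypoxic mutants the call of CR44404 was lost with a pseudocount of 5 (adjusted p of limma 0.0732). Numbers did not pair mutants with w1118 (correlations -0.22 to 0.35), though the block for comparisons between the lines was by number. The unknown depth and the TPM of short or overlapping transcripts limit all values.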
